A study of Homo sapiens with 8 samples.

Results

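The 5 genes described here encode the subunits of the human GPI transamidase: GPAA1, PIGK, PIGS, PIGT and PIGU. They were found by symbol in a table of 25435 genes. All 5 were present and all 5 passed the filter on low counts, which kept 14898 genes. The set was chosen by the counts of GPAA1 in these same libraries, which were low in ZRSR2 knockout cells, so the knockout values below are a description and carry no test.

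The libraries came from SET-2, a human megakaryoblastic line derived from an essential thrombocythemia at leukemic transformation. The series title asks how losing ZRSR2 affects a myeloproliferative neoplasm driven by mutant JAK2, and every group shares this one cell line. Cells were transduced with a GFP-marked guide vector and total RNA was sequenced. In the knockout group, 4 libraries carried a guide against ZRSR2, and in the control group 4 carried a non-targeting guide. Experiment 1 supplied replicates 1 (guide 1) and 2 (guide 2) of each group, and experiment 2 supplied replicates 3 (guide 1) and 4 (guide 2). RNA was collected 20 days after transduction in the first biological replicate and 25 days after it in the other, per the labels' protocol, and the experiment number is read here as that replicate number. Experiment and day therefore cannot be told apart. The labels give no treatment. How Cas9 was supplied, and whether the cells were a pool or a clone, is not given in the sources used here. Nothing says that the guides of 1 experiment were separate cultures beyond their guide, so p-values measure the spread between these libraries.

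Glycosylphosphatidylinositol (GPI) is a glycolipid built on the endoplasmic reticulum membrane that ties many surface proteins to the cell. The transamidase cuts a signal peptide from the end of a precursor protein and joins the new end to the finished lipid. PIGK is its protease subunit, with GPAA1, PIGT, PIGS and PIGU around it. In blood cells the pathway is known for the complement regulators CD55 and CD59, which are lost from the surface when the first enzyme, PIGA, is mutated. ZRSR2 helps the minor spliceosome find the ends of U12-type introns, a rare class that GPAA1 is known to carry.

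The guides are shown because each knockout and control library rests on one of them. Letters are lower case, and the capitals after ZRSR2 guide 2 mark the 3 bases that follow it in the transcript.
ZRSR2 guide 1: tgacgtttcccgagaaacca
ZRSR2 guide 2: acagttcctagacttctatgAGG
non-targeting guide 1: gacggaggctaagcgtcgcaa
non-targeting guide 2: gcgcttccgcggcccgttcaa
Matched to GENCODE 29 transcripts on GRCh38, ZRSR2 guide 1 lies in coding exon 1 of 11, at chrX:15790515-15790534, and guide 2 in coding exon 8, at chrX:15815821-15815840. Neither non-targeting guide matched a transcript. ZRSR2 had 29.4, 22.9, 28.3 and 18.7 CPM (counts per 1000000 counts, with each library total scaled by TMM) in knockout replicates 1 to 4. The controls had 37.9, 39.2, 39.7 and 41.1 CPM. Every knockout library was below every control library, and in both experiments the lower knockout value belonged to guide 2. Guide and gene RNA level are not the same as protein, which was not measured here.

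GPAA1 is annotated at chr8:144082590-144086216 on GRCh38, on the plus strand, with 12 exons, and no other annotated gene overlaps it. The start and end of 7 of its 11 introns could be read from overlapping transcripts. They were searched, on the strand of the gene, for a start of ATATCCTT or GTATCCTT allowing 1 mismatch, and for the branch motif TCCTTAAC, allowing 2 mismatches and a distance of 5 to 40 bases from the intron's last base. Intron 8 of GPAA1, 167 bases long between 144084876 and 144085042, held both, with 1 and 2 mismatches. The branch motif ended 8 bases before the intron's end. The other 6 readable introns of GPAA1 held no such pair.

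The partners offered 11 readable introns, 5 in PIGS and 6 in PIGT, and none held both motifs. The introns of PIGK and PIGU could not be read from transcripts. The starts of the 3 partner introns nearest to the start motif are shown to let the letters be compared, each with 4 mismatches. Capitals mark bases that equal the motif.
PIGS intron 4 start: GTATggga
PIGS intron 9 start: GTAatagT
PIGT intron 10 start: GTgggCTc

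The nearest branch match among the partners was in PIGT intron 8, with 2 mismatches 37 bases before the intron's end, and that intron's start had 6 mismatches. Its last 50 bases are shown with the matching bases of that window in capitals.
PIGT intron 8 end: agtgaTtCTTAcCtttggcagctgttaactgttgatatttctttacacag
Across all coding genes, 12976 of 184815 introns could be read in the same way, and 89 of them, or 0.686%, held both motifs. Of 55 readable introns in 31 other GPI pathway genes, 0 held both. A match describes letters in a window. Counts per gene do not show whether an intron was retained.

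Total counts per library ran from 31106042 to 71521173, with the highest in control replicate 3. The lowest count of any subunit in any library was 721. Of 12 megakaryocyte markers, 10 averaged at least 1 CPM, with GP1BB at 0 counts and PPBP under 1 CPM. Their summed level was 2670 to 3200 CPM in knockout and 2710 to 3550 CPM in control libraries. All 8 erythroid markers averaged at least 1 CPM, summing to 1430 to 1680 CPM in knockout and 1540 to 2330 CPM in control libraries. Of 7 lymphoid markers 2 reached that level, with MS4A1 at 0 counts, and of 8 granulocyte and monocyte markers 2 did, with FCN1 at 0 counts. The part of these marker levels in the results was not tested. In bulk RNA, fewer cells of a type and less RNA per cell cannot be told apart.

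Divided by the length of the main transcript, the subunits kept one order in every library. PIGT stood highest at 83.5 ± 5.64 CPM per kilobase (SD, n = 8), followed by PIGS at 49.8 ± 5.46 and GPAA1 at 38.0 ± 6.80. PIGU was at 18.4 ± 1.42 and PIGK, the protease, lowest at 5.84 ± 0.879 CPM per kilobase. The ranges over the 8 libraries overlapped for 1 pair of neighbours in this order, PIGS and GPAA1, although PIGS was the higher of them in 8 of 8 libraries. These lengths come from 1 annotated transcript per gene, and the transcript actually used was not tested.

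GPAA1, which takes part in joining the protein to the GPI lipid, was the subunit with the lowest knockout to control ratio. Its levels were 80.0, 63.5, 66.6 and 59.9 CPM in the knockout libraries, replicates 1 to 4, and 96.1, 92.3, 91.8 and 80.7 CPM in the controls. The groups did not overlap, but only just, since the highest knockout library was at 80.0 and the lowest control library at 80.7 CPM. The means were 67.5 ± 8.79 and 90.2 ± 6.65 CPM (SD, n = 4 each). The fitted log2 fold change was −0.42 (SE 0.11), a fold of 0.748, and −0.42 (SE 0.08) with the experiment also in the fit. Over all genes tested, 0.376% had every knockout library below every control library. A lower log2 fold change than that of GPAA1 was found for 391 of the 14898 genes, or 2.62%, and for 93 of the 11014 genes that averaged at least 5 CPM. These values chose GPAA1 and support nothing further.

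None of the other 4 subunits separated the groups over all 8 libraries, as 0.678% of all genes did in either direction. PIGK, the protease that cuts the precursor, had 24.9, 29.1, 35.1 and 22.4 CPM in the knockout libraries and 23.3, 25.6, 25.7 and 28.6 CPM in the controls. The knockout libraries held both its highest and its lowest value, and they were those of guides 1 and 2 in experiment 2. Its log2 fold change was 0.11 (SE 0.15), and −0.02 without knockout replicate 3.

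PIGT, the large lumenal subunit bound to PIGK, was at 195, 187, 189 and 182 CPM in the knockout libraries and at 175, 179, 214 and 178 CPM in the controls. Control replicate 3 stood above all other libraries, and the remaining controls lay below every knockout library. The log2 fold change was 0.01 (SE 0.09).

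PIGS, a further membrane subunit with a large lumenal part, was at 131, 121, 146 and 148 CPM in knockout and at 134, 138, 169 and 160 CPM in control libraries. The groups overlapped over both experiments, while within each experiment both knockout libraries were below both controls. The log2 fold change was −0.14 (SE 0.11), and −0.13 (SE 0.06) with the experiment also in the fit.

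PIGU, a subunit with many membrane passes, was at 27.8, 29.9, 34.1 and 27.9 CPM in knockout and at 28.7, 29.8, 33.0 and 28.9 CPM in control libraries. The groups covered nearly the same range, with the highest value of each in guide 1 of experiment 2. The log2 fold change was −0.01 (SE 0.10).

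**Figure D1:**
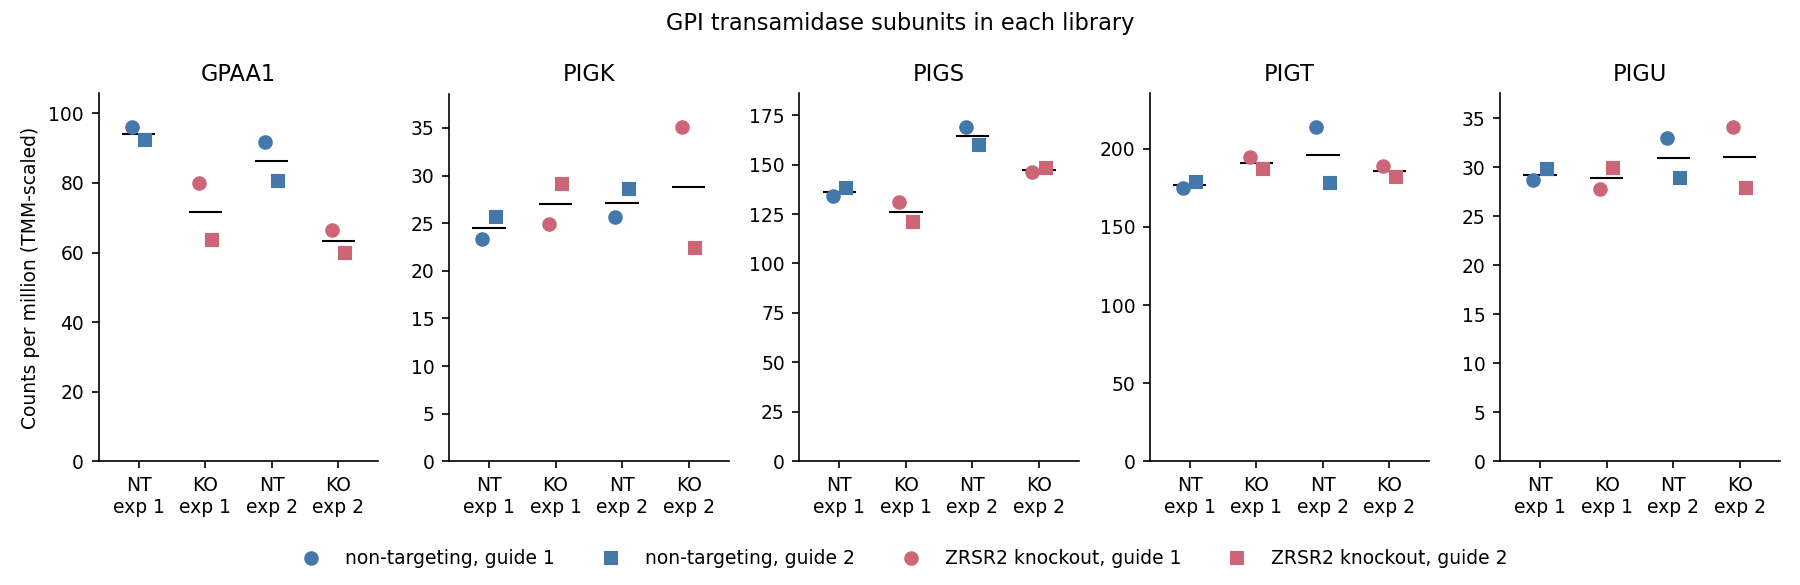
Level of each transamidase subunit in TMM-scaled CPM (y axis, from 0) in the 8 libraries, by group and experiment (x axis; NT, non-targeting; KO, ZRSR2 knockout), with circles for guide 1, squares for guide 2 and a line at the mean of each pair. GPAA1 knockout points lie at 59.9 to 80.0 CPM and control points at 80.7 to 96.1 CPM, while the points of the other 4 subunits overlap.

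Overlapping annotation limits some of these counts. PIGK overlaps 2 genes on the opposite strand, PIGT and PIGU overlap 1 each, and PIGS, PIGT and PIGU each overlap 1 gene on their own strand, which for PIGU is NCOA6. Whether the counting used strand is not given in the sources used here, so the counts of PIGK, PIGS, PIGT and PIGU are uncertain to that extent.

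Dividing GPAA1 by its partners within a library removes any scaling between libraries. GPAA1 gave 17.4%, 14.7%, 14.2% and 13.6% of the counts of the 5 subunits in knockout replicates 1 to 4. The control libraries had 21.0%, 19.9%, 17.2% and 16.9%. The shares were lower in experiment 2 in both groups, and the highest knockout share, from experiment 1, exceeded both control shares of experiment 2. Per count of the 4 partners summed, GPAA1 had 0.192 counts in knockout and 0.257 in control libraries of experiment 1, a ratio of 0.746. In experiment 2 it had 0.161 and 0.206, a ratio of 0.783. Over both experiments the means were 0.177 and 0.232, a ratio of 0.763, and the groups did not overlap within either experiment.

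The same held against each partner alone, but these 4 ratios share the GPAA1 counts that chose the set and are not separate observations. The knockout mean over the control mean was 0.706 for GPAA1 per PIGK, 0.736 per PIGT, 0.757 per PIGU and 0.819 per PIGS. Within each experiment the knockout libraries lay below the controls for all 4 partners, and against PIGT they did so over all 8 libraries, with 0.330 to 0.410 in knockout and 0.429 to 0.549 in control. The 6 ratios among the partners themselves ran from 0.903 for PIGS per PIGT to 1.19 for PIGK per PIGS, and over all 8 libraries the groups overlapped in all 6, as they did for GPAA1 per PIGK, PIGS and PIGU. Within experiment 1, the groups also did not overlap for 4 of these 6 ratios: PIGS per PIGT was lower in knockout, at 0.648 to 0.670 against 0.764 to 0.770, and PIGK per PIGS, PIGK per PIGU and PIGT per PIGU were higher. Within experiment 2 all 6 overlapped. Because GPAA1 was chosen for its knockout values, no test was made of these ratios. For the same reason, setting its ratios beside those among the partners supports nothing further.

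**Figure D2:**
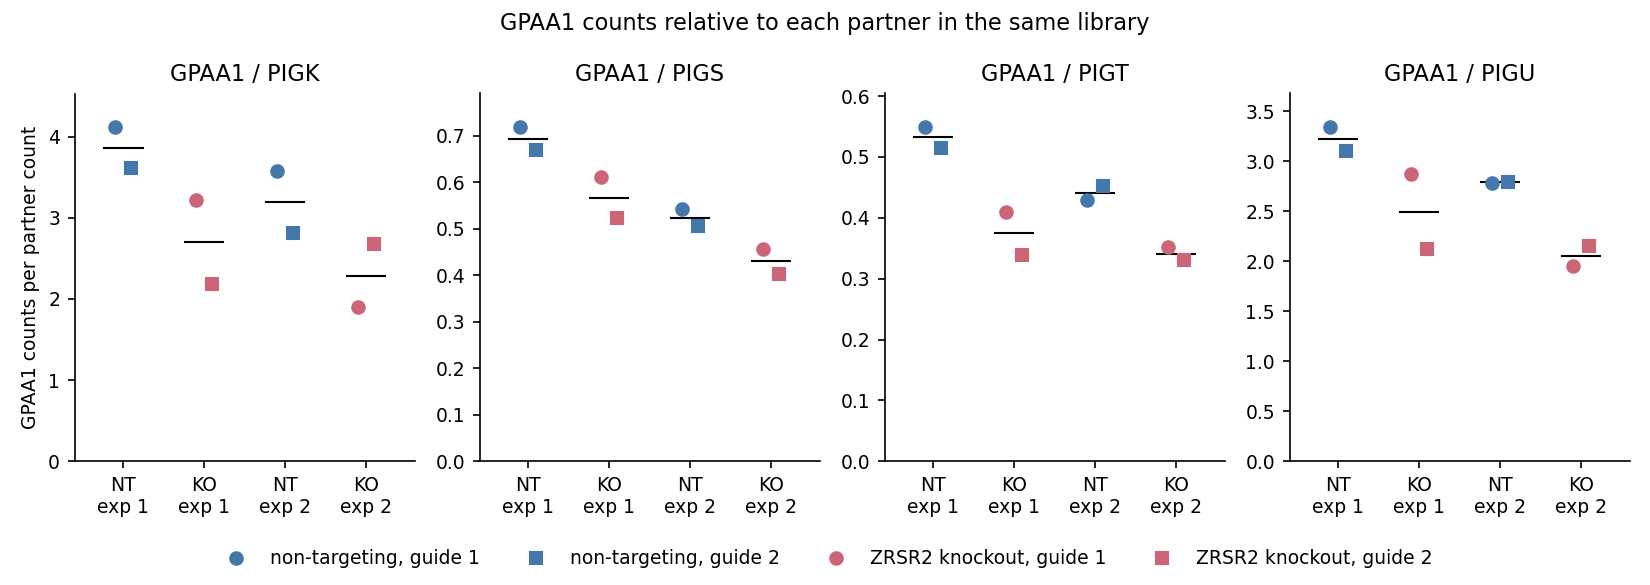
GPAA1 counts per count of each partner in the same library (y axis, from 0) by group and experiment (x axis; NT, non-targeting; KO, ZRSR2 knockout), with circles for guide 1, squares for guide 2 and a line at the mean of each pair. In every panel the knockout pair lies below the control pair of its own experiment, and the panel for PIGT has no overlap over all 8 libraries.

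The knockout values were then read within each experiment. For GPAA1 the log2 fold change was −0.39 (SE 0.13) in experiment 1 and −0.45 (SE 0.13) in experiment 2, and those effects differed by −0.06 (SE 0.18; edgeR adjusted p of 1). GPAA1 and PIGS had both knockout libraries below both controls in each experiment. Over all genes, 17.9% did so in experiment 1 and 12.3% in experiment 2, and the share that did so in both was not computed. For PIGS the log2 fold changes were −0.11 (SE 0.09) and −0.16 (SE 0.09). PIGT had both knockout libraries above both controls in experiment 1, as 18.5% of all genes did, and overlapped in experiment 2. Its effects of 0.11 (SE 0.10) and −0.08 (SE 0.10) were the pair that differed most, by −0.20 (SE 0.15), again with an edgeR adjusted p of 1. The differences of PIGK, PIGS and PIGU were −0.06 (SE 0.26), −0.05 (SE 0.13) and 0.02 (SE 0.19). In this test of the difference, 0 of 5 subunits and 0% of the 14898 genes were called by edgeR or by DESeq2, and 248 genes had an unadjusted edgeR p under 0.05.

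Guides were compared next. ZRSR2 guide 1 and guide 2 share the same 4 control libraries, so their values against control are given side by side. GPAA1 had a log2 fold change of −0.30 (SE 0.14) for guide 1 and −0.55 (SE 0.14) for guide 2, and ZRSR2 itself had −0.45 (SE 0.14) and −0.92 (SE 0.15). PIGK had 0.22 (SE 0.20) and −0.00 (SE 0.20), and PIGS had −0.12 and −0.15 (SE 0.16 each). PIGT had 0.04 and −0.02 (SE 0.12 each), and PIGU had 0.04 and −0.06 (SE 0.15 each). In knockout libraries, guide 2 was lower than guide 1 in both experiments for GPAA1, PIGT and ZRSR2. GPAA1 was also lower with non-targeting guide 2 than with non-targeting guide 1. It was at 92.3 against 96.1 CPM in experiment 1 and at 80.7 against 91.8 CPM in experiment 2. The share of all genes lower in both experiments was not computed. Over all genes, edgeR called 0 for either guide against control. With the experiment as a block it called 0 for guide 1 and 10, or 0.0671%, for guide 2, and ZRSR2 went from an adjusted p of 1 to 0.0118 for guide 2.

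Tested directly, guide 2 against guide 1 in knockout cells gave a GPAA1 log2 fold change of −0.25 (SE 0.16), with an edgeR adjusted p of 1. It was −0.10 without knockout replicate 1 and −0.38 without knockout replicate 3. Both guide 2 libraries were below both guide 1 libraries for GPAA1 and for PIGT, which was so for 5.03% of all genes. The other log2 fold changes were −0.22 (SE 0.23) for PIGK, −0.04 (SE 0.19) for PIGS, −0.06 (SE 0.14) for PIGT and −0.10 (SE 0.17) for PIGU. Between the non-targeting guides, where no ZRSR2 change is intended, GPAA1 had −0.12 (SE 0.16), PIGK 0.14 (SE 0.23) and PIGS −0.02 (SE 0.19) for guide 2 against guide 1. With 1 library left out, that GPAA1 value ran from −0.20 without control replicate 2 to −0.02 without control replicate 4. PIGT had −0.12 (SE 0.14) and PIGU −0.07 (SE 0.17), and all 5 overlapped between those guides, whereas 10.8% of all genes did not. Called genes were 0%, and 0 of 5 subunits, in both guide comparisons by edgeR and by DESeq2. Unadjusted edgeR p-values under 0.05 were found for 27 genes between the ZRSR2 guides and for 13 between the non-targeting guides, and for 376 and 482 with the experiment as a block, which left 0 genes called in both.

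**Figure D3:**
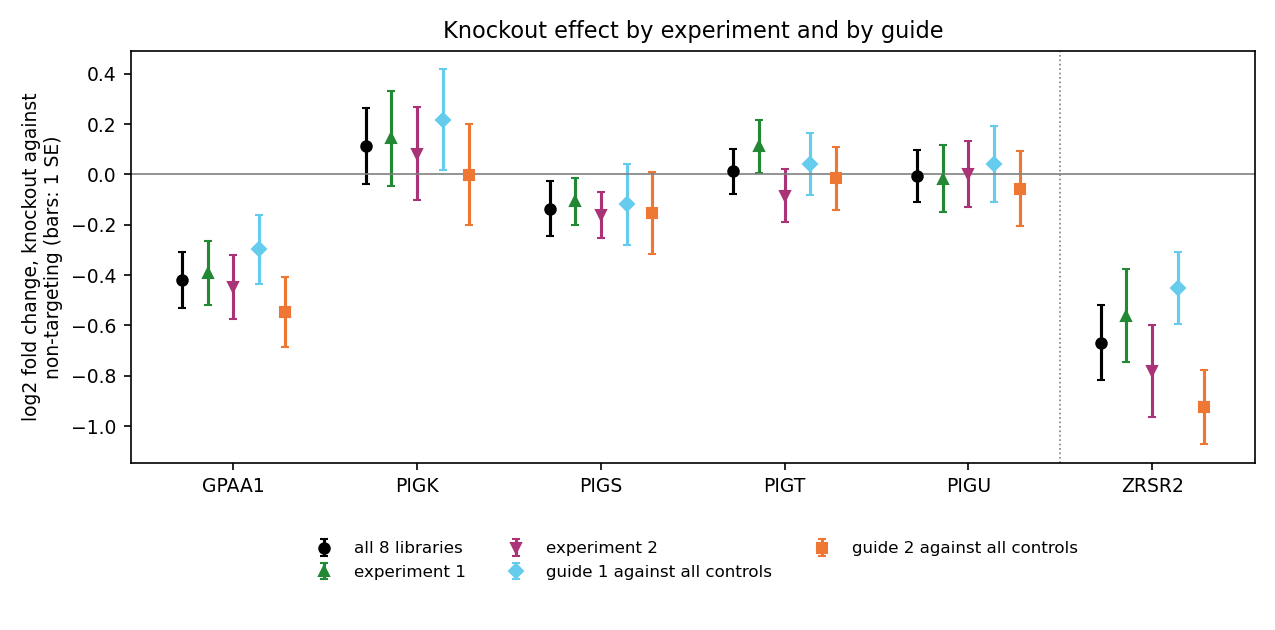
Log2 fold change of ZRSR2 knockout against non-targeting libraries (y axis, bars 1 SE) for the 5 subunits and ZRSR2 (x axis), over all 8 libraries, within each experiment, and for each ZRSR2 guide against the 4 controls. GPAA1 lies below 0 in all 5 readings, from −0.30 to −0.55, as does PIGS, from −0.11 to −0.16. The readings of PIGK, PIGT and PIGU lie on both sides of 0 or near it. All 5 readings reuse the same 8 libraries, so they are not separate observations, and knockout values chose GPAA1.

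Between the experiments, a contrast that did not choose the subunits, PIGS was the one subunit to change. Its 4 libraries lay at 121 to 138 CPM in experiment 1 and at 146 to 169 CPM in experiment 2, with no overlap, as did 28% of all genes. The log2 difference of 0.25 (SE 0.07) had an edgeR adjusted p of 0.00722 over all genes, and of 0.0503 without control replicate 1. GPAA1 had −0.15 (SE 0.09) with an adjusted p of 0.165, and PIGK had 0.12 (SE 0.13) with 0.454. PIGT had 0.05 (SE 0.07) with 0.576, and PIGU had 0.09 (SE 0.09) with 0.422. Single libraries bore on these calls: GPAA1 had −0.23 with an adjusted p of 0.0492 without knockout replicate 2, and PIGK had 0.26 with 0.0464 without knockout replicate 4 and −0.05 with 0.679 without knockout replicate 3. So 1 of 5 subunits was called, whereas 58.2% of all genes were, 29.6% higher and 28.6% lower in experiment 2.

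Of 21 listed genes for enzymes that build the lipid, 20 were tested, PIGY being listed at 0, and 6 rose, 6 fell and 8 did not pass. That is near the shares over all genes, 29.6% higher and 28.6% lower. PIGW, which adds an acyl chain to the inositol, was at 17.5 to 19.2 CPM in experiment 1 and at 5.96 to 8.34 CPM in experiment 2, and fell by 1.37 (SE 0.10) on the log2 scale. PIGQ, a subunit of the first enzyme, fell by 0.91 on the log2 scale, and PIGM, which adds the first mannose, fell by 0.67. PIGZ, which can add a further mannose, rose by 1.2 (SE 0.15), from 2.39 to 2.85 CPM up to 5.30 to 7.13 CPM. PIGB, which adds the third mannose, rose by 0.48, and PIGG, which adds ethanolamine phosphate, rose by 0.42. PIGA, the catalytic subunit of the first step, had −0.13 with an edgeR adjusted p of 0.436. The median over the 20 genes was −0.01, beside 0.00 over all genes tested.

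Of the 4 genes that remodel the lipid after attachment, 2 rose and 2 did not pass. PGAP1, which removes the inositol acyl chain, rose by 1.18 (SE 0.17) on the log2 scale, from 1.42 to 2.10 CPM up to 3.39 to 4.28 CPM. PGAP2, which takes part in exchanging the fatty acid, rose by 0.28 (SE 0.07).

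Among the genes of GPI-anchored proteins, the substrates of the transamidase, 42 of 59 were tested, and 19 rose, 6 fell and 17 did not pass, where 29.6% of all genes rose and 28.6% fell. Their median log2 fold change was 0.36, beside 0.003 over all genes tested. The 6 with the largest changes all rose in experiment 2. GPC6, a glypican carrying heparan sulfate, went from 1.74 to 3.31 CPM up to 11.8 to 16.2 CPM and rose by 2.57 (SE 0.15) on the log2 scale. ALPL, an alkaline phosphatase, rose by 2.55, and THY1, a surface glycoprotein of the immunoglobulin superfamily, rose by 2.21. The glypicans GPC4 and GPC1 rose by 2.17 and 2.16, and the ephrin EFNA5 rose by 1.89. EFNA5 was near the floor, at 0.27 to 0.44 CPM in experiment 2. In experiment 1 it had 1 to 5 counts per library, so it passed the filter on low counts through experiment 2. Requiring at least 10 counts in every library left out EFNA5 and GPC1. Of the 40 anchored genes then tested, 17 rose and 6 fell, and the median was 0.28.

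CD59 was the one of the named blood-cell surface proteins to pass. It was at 137 to 155 CPM in experiment 1 and at 159 to 175 CPM in experiment 2, with a log2 fold change of 0.21 (SE 0.07) and an edgeR adjusted p of 0.0188. That p lay between 0.0544 and 0.109 when knockout replicate 2 or 3 or control replicate 1 or 2 was left out. CD55 had 0.22 (SE 0.11) with an adjusted p of 0.101, and 0.34 with 0.00187 without control replicate 3. It passed at 0.0162 when genes of low count were kept in. CD48, a ligand on blood cells, had 0.40 (SE 0.26) with an adjusted p of 0.21 at levels of 0.55 to 1.04 CPM. The sums of 3 other marker lists did not overlap between experiments 1 and 2, and neither did 56% of all genes, in either direction. The lymphoid sum was 13.9 to 15.3 and 37.8 to 55.4 CPM. By mean level it was mostly CD79A, with CD3E, CD3D and CD2 each averaging under 1 CPM. The granulocyte and monocyte sum, mostly LYZ, was 229 to 247 and 252 to 326 CPM. The erythroid sum, in which HBG2 had the highest mean, was 1430 to 1590 and 1610 to 2330 CPM. A sum led by 1 gene cannot tell a change in that gene from a change in cell type. The megakaryocyte sums overlapped, at 2670 to 2870 and 2810 to 3550 CPM. The part of these marker sums in the changes between experiments was not tested.

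**Figure D4:**
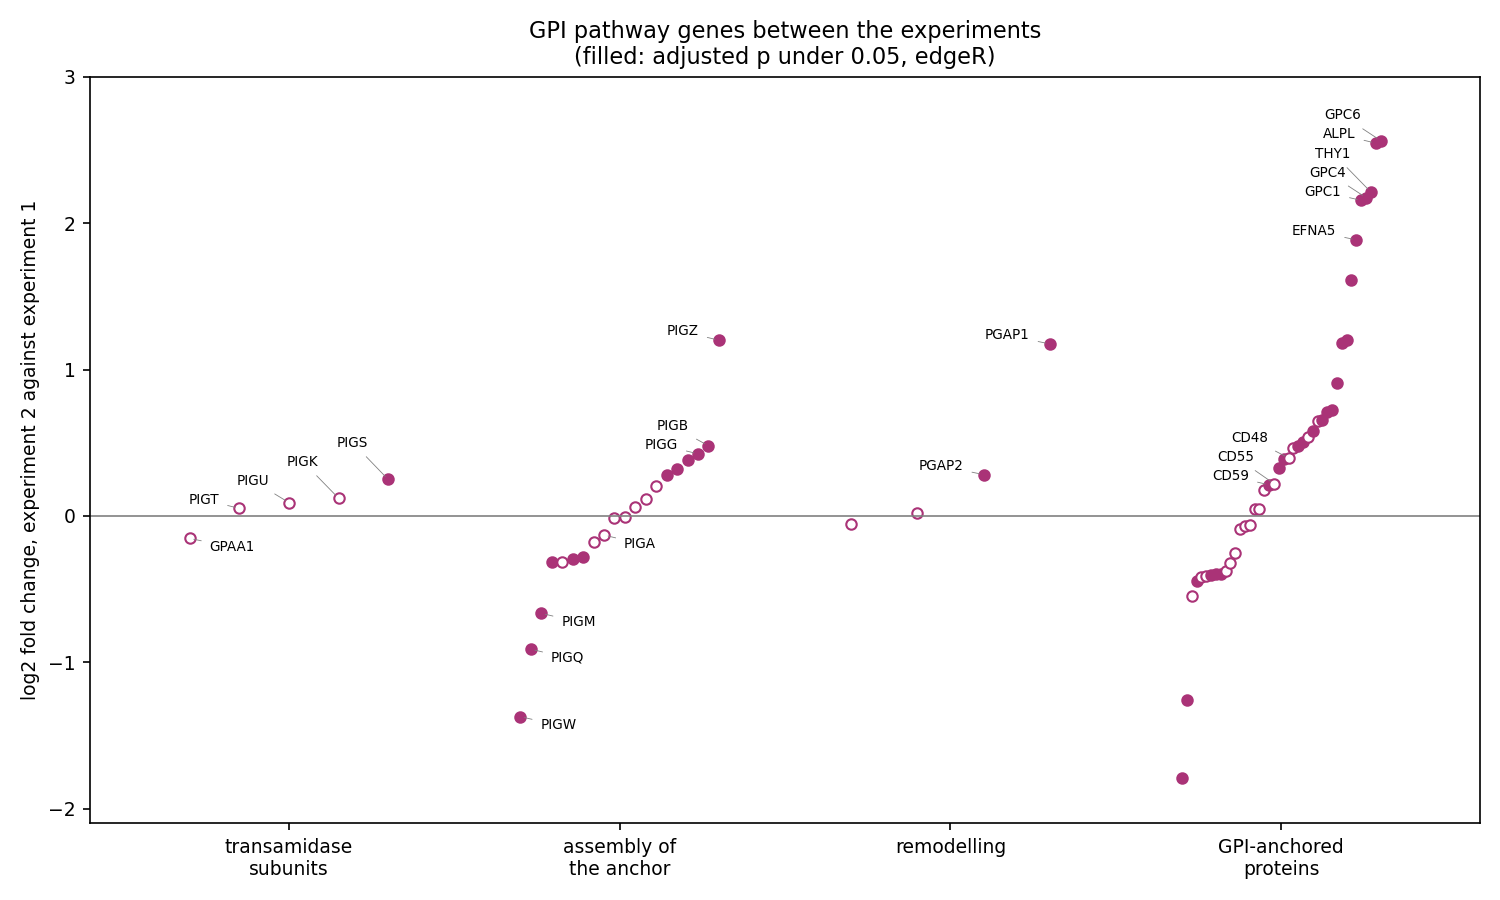
Log2 fold change of experiment 2 against experiment 1 (y axis) for the tested genes of 4 lists (x axis), each in ascending order within its list; filled points have an edgeR adjusted p under 0.05, and the genes named in the text carry labels. The subunits lie between −0.15 and 0.25 with PIGS filled, and the list of anchored proteins reaches 2.57.

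Between knockout and control, 0 genes of these 3 lists passed. Over all genes, 0% were called by edgeR's quasi-likelihood test and 89 had an unadjusted p under 0.05. DESeq2 called 4 genes, or 0.0268%: TGM1, EXOSC5, MT1E and SLC4A1, named after their values were seen. Blocking on experiment left 0 edgeR calls (690 genes had an unadjusted p under 0.05) and gave 31 DESeq2 calls, or 0.208%. ZRSR2 and GPAA1 were among those 31. This contrast is the one by which GPAA1 was proposed, so its call supports nothing further. Of the 20 assembly genes, 10 lay above and 10 below 0, and the median log2 fold change was 0.00. The 4 remodelling genes had a median of −0.05 and the 42 anchored proteins one of −0.01, beside −0.00 over all genes tested.

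The genes with the smallest unadjusted p in each list did not pass either, all with an edgeR adjusted p of 1. In the assembly list they were PIGB at −0.31 (SE 0.20), PIGH at −0.15 (SE 0.12) and PIGO at 0.10 (SE 0.11), on the log2 fold change scale. The remodelling genes PGAP2, MPPE1 and PGAP3 had −0.14, −0.07 and −0.04. FOLR2, a folate receptor, had −0.50 (SE 0.36) and was near the floor, at 0.228 to 0.549 CPM. The ephrins EFNA4 and EFNA3 had −0.28 (SE 0.22) and −0.41 (SE 0.33). These 2 ephrins had −0.16 and −0.06 without control replicate 4, and −0.43 and −0.62 without knockout replicate 4. The surface proteins CD59, CD55 and CD48 had 0.03 (SE 0.10), −0.10 (SE 0.16) and 0.02 (SE 0.31), and PIGA had −0.00 (SE 0.16). Surface protein was not measured here.

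The genes beside GPAA1 on its chromosome did not separate the groups, which only 0.678% of all genes did in either direction. The nearest tested genes were OPLAH and EXOSC4 on one side and CYC1 and SHARPIN on the other. Their knockout log2 fold changes were 0.19 (SE 0.37), −0.04 (SE 0.40), −0.12 (SE 0.12) and −0.06 (SE 0.16), and the libraries of the groups overlapped for each.

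Across the 8 libraries, GPAA1 had Pearson correlations of log2 CPM of −0.304 with PIGK, 0.212 with PIGS, 0.076 with PIGT and 0.014 with PIGU. With each experiment's mean subtracted, that with PIGS was 0.937 and the other 3 were −0.24, 0.174 and 0.167. PIGK and PIGU had 0.696 before and 0.665 after subtraction, and PIGT and PIGU had 0.523 and 0.468. The remaining 4 pairs had 0.025 to 0.374 before and −0.41 to 0.278 after subtraction. These describe 8 libraries that share their experiments, genotype groups and depths.

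By the same measure after subtraction, the 5 genes most like GPAA1 among 11013 genes averaging at least 5 CPM were SLC43A3, B3GALT4, VPS11, PPME1 and PHB2, with correlations of 0.985, 0.978, 0.972, 0.966 and 0.961 over 8 libraries. SLC43A3 encodes a solute carrier, B3GALT4 a galactosyltransferase, VPS11 a vesicle tethering protein, PPME1 a methylesterase of protein phosphatase 2A and PHB2 a prohibitin. This choice by likeness largely fixes that they share GPAA1's pattern within an experiment. Over all 8 libraries the groups overlapped for SLC43A3, B3GALT4, PPME1 and PHB2. They did not for VPS11, which was at 50.9, 41.6, 51.5 and 44.9 CPM in knockout and at 58.3, 57.5, 67.9 and 67.3 CPM in control libraries. Without the subtraction the 5 most alike were SLC4A1, VPS16, ZRSR2, ZPR1 and LGALS3, and 0 genes were shared between those lists. After subtraction these 5 still had correlations of 0.957, 0.95, 0.931, 0.915 and 0.935 with GPAA1. Without it, SLC43A3, B3GALT4, VPS11, PPME1 and PHB2 had 0.842, −0.106, 0.79, 0.517 and 0.876.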

How the data were processed

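The authors deposited one table of expected counts from RSEM, with a row for each gene symbol. Per the submitters' processing notes, cutadapt 1.11 and RSEM 1.2.30 were used with hg19. The aligner, annotation and use of strand are not given in the sources used here. The deposited expected counts were whole numbers, rounding changed 0 values, and 0 columns belonged to other samples. RSEM shares reads between similar transcripts by probability, so genes with near-identical copies, such as ZRSR2, are uncertain.

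Genes were filtered with filterByExpr, which kept at least 99.966% of each library's counts, and were scaled by TMM. edgeR 4.0.16 quasi-likelihood tests were adjusted over 14898 genes by Benjamini-Hochberg with a threshold of 0.05, in R 4.3.3. The genotype effect was fitted with genotype alone, experiments and their difference in a fit with 4 cells of genotype by experiment, and guides in a fit with the 4 guides. The genotype and guide fits leave out the pairing by experiment, so their SEs include the difference between experiments. With the experiment as a block, the SE of the knockout effect was 0.084 for GPAA1, 0.124 for PIGK, 0.061 for PIGS, 0.075 for PIGT and 0.087 for PIGU. Standard errors were derived from the F statistic. The scripts were tested on simulated data. Recovery of changed genes was required there only with the experiment as a block and for the experiment contrast. It therefore does not show the power of the genotype fit without the block. Log2 CPM used a prior count of 2. DESeq2 1.42.0, its size factors, other filters, each library left out, and the experiment as a block were tried as alternatives. Leaving out libraries together with the block was added after seeing the data.

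The 5 subunits and all lists were chosen with earlier results of these data known. Named genes were the 5 subunits, ZRSR2, CD59, CD55, CD48, PIGA, at most 6 per list by size of change among those passing, at most 3 of smallest p where none passed, the 5 genes most correlated with GPAA1, and its 2 nearest tested genes on each side.

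The experiment number is shared across groups. The labels tie the biological replicate number to a collection day, and reading the experiment number as that number is an inference. Deviations from group means correlated at 0.678 to 0.846 in 8 knockout and control pairs of the same experiment and at −0.816 to −0.709 in 8 pairs of different experiments, so the number was taken to pair the libraries. Chi-square per degree of freedom was at least 3.11 between any pair of libraries, so all 8 were kept as separate. Depth of 31106042 to 71521173 counts covers counting error only, since reads carry no molecular identifiers. Gene positions and transcript lengths are matches of symbols to GENCODE 29 on GRCh38, not the authors' hg19 annotation. The order of the genes beside GPAA1 was taken from RefSeq. A further ZRSR2 guide in the design was not analysed here, and the intron sequence of GPAA1 is not reported here. Figures were drawn with matplotlib.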

Additional observations from a re-analysis of the deposited data

Results flagged for a closer look

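PIGT in control replicate 3 stood apart from the other libraries of its group, at 214 CPM against 175 to 179 CPM. It was the one such case in 20 groups of 4 libraries examined, and chance flags about 1 in 20. That library also had the highest total count, and the part of its depth was not tested.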

How the results depend on the processing

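Of 848 values recomputed for 66 results, 794 kept their direction and their side of the threshold or moved less than the spread. For counts of calls over all genes, staying within a factor of 1.5 was taken as the same. Of the rest, 36 turned direction, 9 moved further, 5 lost a call and 4 gained one. Knockout calls over all genes numbered 0 in edgeR, 4 in DESeq2 and 31 in DESeq2 with the experiment as a block. With the block in edgeR they numbered 0, and 0 to 12 when a library was also left out (1 without knockout replicate 3, 12 without control replicate 3). In edgeR the block also raised the calls of ZRSR2 guide 2 against control from 0 to 10, ZRSR2 among them, and changed no call of a subunit. Without a count filter, 5 genes (DDIT4, IL1R1, HILPDA, ADM and CILP, named after their values were seen) differed in knockout effect between experiments. Calls between experiments numbered 7178 to 9193 with a library left out. With each library left out, GPAA1 lay at −0.51 to −0.37 against control (−0.50 to −0.36 with the block), and its count per partner count at 0.713 to 0.803 of control. PIGK lay at −0.018 to 0.201 (−0.02 to 0.237 with the block). Directions turned in these ranges of log2 fold change. Knockout: CD48 −0.13 to 0.16, CD55 −0.17 to 0.10, CD59 −0.027 to 0.103, PIGT −0.017 to 0.085, PIGU −0.074 to 0.039, PGAP3 −0.07 to 0.013 and PIGA −0.106 to 0.077, PIGA also at 0.002 with the block or no filter. Experiment: PIGK −0.054 to 0.265 and PIGT −0.016 to 0.109. Difference of knockout effects: GPAA1 −0.22 to 0.12, PIGK −0.42 to 0.23 and PIGU −0.14 to 0.15. ZRSR2 guides: PIGK −0.441 to 0.048, PIGS −0.19 to 0.10 and PIGU −0.231 to 0.056. Non-targeting guides: PIGS −0.17 to 0.16, PIGT −0.248 to 0.032 and PIGU −0.156 to 0.03. Where fewer libraries did not bring the change about, the cause was not tested.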
